A study of Homo sapiens with 2 samples.

Results

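Messenger RNAs of 2 large protein assemblies, the Mediator complex and the nuclear pore complex, were examined for N6-methyladenosine (m6A) in HCCLM3 cells, a human hepatocellular carcinoma line of high metastatic capacity. The members were the protein-coding genes whose symbols are MED or NUP followed by a number and optional letters. By this rule there were 53 members among 20056 protein-coding genes, 30 of them Mediator subunits and 23 nucleoporins. A peak was given to a member when its summit lay inside the RefSeq span of the gene on hg38, and 85 of the 39801 peaks used here did so, 50 in Mediator genes and 35 in nucleoporin genes. The data were 1 m6A immunoprecipitated (RIP) library and 1 input library, both of wild-type genotype, with no treatment given in the labels and no replicate of either. Each value is the authors' fold of RIP over input at a peak summit, so no difference below has a replicate check and none was tested. The bracketed interval after a fold is the exact 95% Poisson interval on the recovered number of RIP fragments, and covers counting error only.

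Mediator is the large coactivator that connects transcription factors bound to DNA with RNA polymerase II. Its core has head, middle and tail modules on the MED14 scaffold, and a detachable kinase module holds MED12, MED13 and a cyclin-dependent kinase. Nucleoporins build the nuclear pore, the channel through which mRNA leaves the nucleus and proteins enter it. Structural nucleoporins form the Y complex and the inner ring. Others carry phenylalanine-glycine (FG) repeats that fill the channel or extend as cytoplasmic filaments and a nuclear basket. m6A is deposited on nascent transcripts, mostly in long exons and near the stop codon, and is read in the cytoplasm by YTHDF proteins such as YTHDF2, which the series concerns.

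The liver origin of the cells was visible only in part of the list. Among hepatocyte marker genes, the regulators HNF4A and FOXA2 and the secreted protein genes APOB and FGB held a peak, while ALB, APOA1, APOA2, APOC3, TTR, SERPINA1 and TF held none. None of 3 immune markers held a peak, and PECAM1 was the 1 of 3 endothelial and stromal markers that did. A peak list does not measure expression, so a gene without a peak may have lacked m6A or had too little RNA to show it. Fewer transcripts and less methylation per transcript cannot be told apart in these values.

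The share of genes with a peak was 80% in the Mediator family and 65.2% among nucleoporins, a difference that was not tested and depended on the threshold. A summit lay in 24 of 30 Mediator genes (80%) and in 15 of 23 nucleoporin genes (65.2%), against 49.3% of all protein-coding genes. The difference of 14.8 percentage points had a 95% interval of -8.77 to 37.7. Genes are not replicates, so this interval is a description and no test between the families. At a q-value under 0.05 the counts were 22 Mediator genes (73.3%) and 9 nucleoporin genes (39.1%), against 38.9% of all protein-coding genes. At a q-value under 1e-5 they came together, with 12 Mediator genes (40%) and the same 9 nucleoporin genes (39.1%), against 28.4%. Without peaks labelled intron, 21 Mediator genes (70%) and 9 nucleoporin genes (39.1%) remained, against 43.2%. Between the thresholds lay 10 Mediator genes and no nucleoporin gene.

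**Figure D1:**
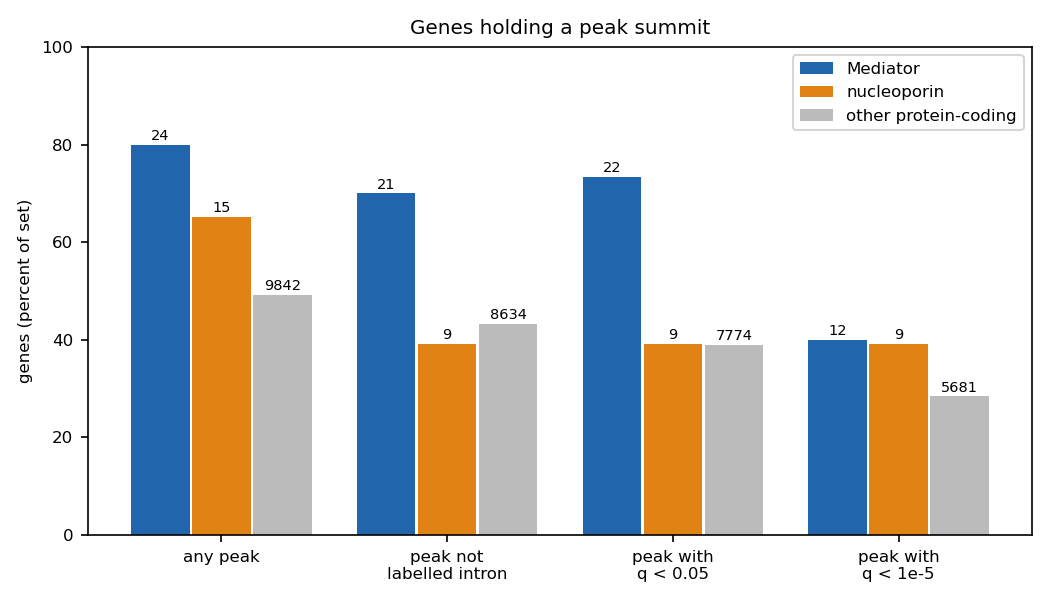
Percent of genes holding a peak summit (vertical axis) under 4 rules for the peak, for Mediator genes, nucleoporin genes and the other 20003 protein-coding genes. The Mediator bar falls to 12 of 30 genes at a q-value under 1e-5, against 9 of 23 nucleoporin genes, which is also their count at a q-value under 0.05.

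The families differed in gene length, and its part in the shares above was not tested. The median span was 19.5 kb for Mediator genes and 59.4 kb for nucleoporin genes, against 24.1 kb for all protein-coding genes. Of 16 Mediator genes up to 20 kb long, 11 (68.8%) held a peak with a q-value under 0.05, against 25.3% of the other protein-coding genes of that length. NUP42 was the only nucleoporin gene in that class, and it held such a peak. Between 20 and 100 kb the count was 8 of 10 Mediator genes (80%) and 5 of 17 nucleoporin genes (29.4%), against 47.7% of the other genes. Over 100 kb it was 3 of 4 Mediator genes (75%) and 3 of 5 nucleoporin genes (60%), against 55.4% of the others. Summed over the spans, there were 3.01 peaks per 100 kb in Mediator genes and 2.25 in nucleoporin genes, against 2.45 in the rest.

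The heights of the peaks did not separate the families. The median over genes of the highest fold was 4.69 (quartiles 3.58 to 5.60) for the 24 Mediator genes and 5.22 (2.69 to 5.73) for the 15 nucleoporin genes, against 4.73 (3.38 to 6.65) for the 9842 other genes with a peak. Very high folds were few. A highest fold of at least 6 was reached by 3 Mediator genes (12.5% of those with a peak) and 4 nucleoporin genes (26.7%), against 31.6% of the other genes. The median input level at a summit was 3.0 in Mediator genes and 2.66 in nucleoporin genes, against 1.0 elsewhere. The part of this level in the shares above was not tested.

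**Figure D2:**
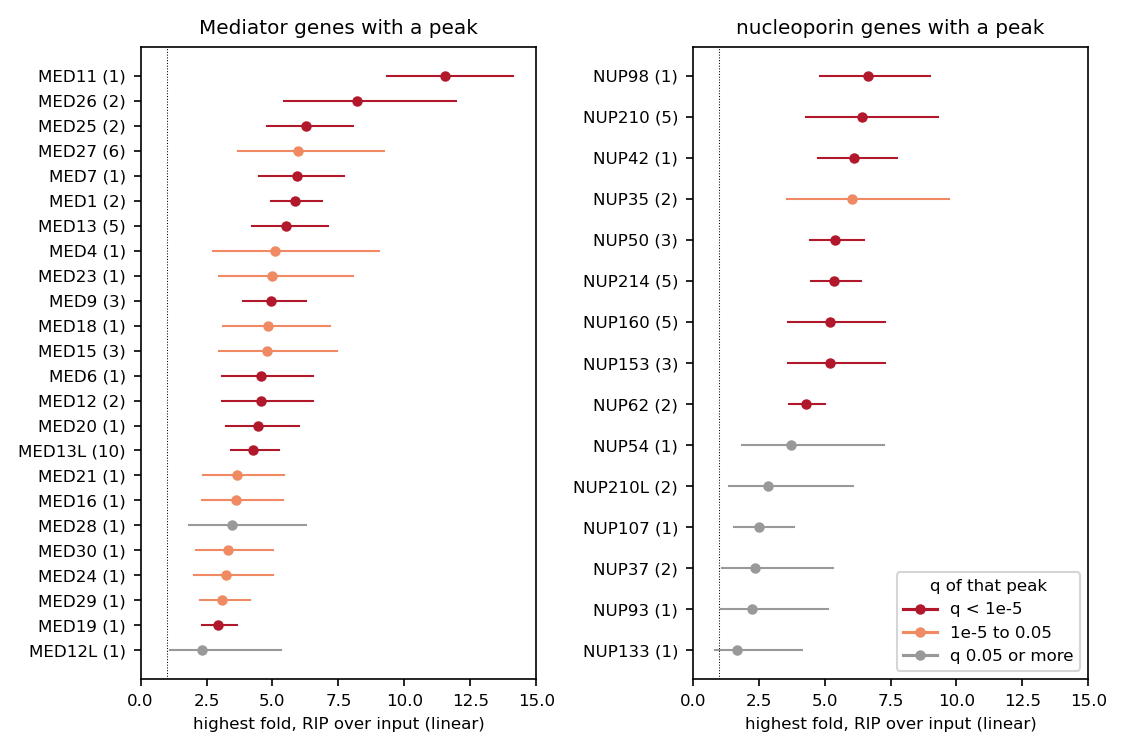
Highest fold of RIP over input (linear horizontal axis) of each member with a peak, Mediator genes left and nucleoporin genes right, with the number of its peaks in brackets. Bars are exact 95% Poisson intervals and colours give the q-value of that peak. MED11 stands apart at 11.5, and most members lie between 3 and 7.

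In the head module, which contacts RNA polymerase II, 4 of 7 genes held a peak. MED11 had the highest fold of all members, 11.5 (9.33 to 14.1) on 91 RIP fragments, at chr17:4733081-4733707. Among the 9881 protein-coding genes with a peak, 327 (3.31%) had a higher one. Its deposited label was promoter, because MED11 spans 2.18 kb and the label reaches 3 kb from a start, but the summit lay 1.91 kb after the start and 0.273 kb before the end of the gene. The peak ran past that end, and CXCL16 also lies under it; with no strand given for a peak, the 2 genes cannot be told apart there. MED18 had a 3' UTR peak of 4.82 (3.11 to 7.20) and MED20 one of 4.44 (3.22 to 5.99). MED6 had a peak of 4.58 (3.10 to 6.55) in exon 6 of 8. MED8, MED17 and MED22 held no peak among those used here. MED17, a central head subunit, is the longest gene of the module at 30.7 kb.

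The subunits MED27, MED28, MED29 and MED30, which lie where head and tail meet, all held a peak, none with a q-value under 1e-5. MED27 spans 220 kb and held 6 peaks. The strongest, 5.95 (3.68 to 9.23) on 17 fragments in the 3' UTR at chr9:131860003-131860534, missed that threshold narrowly with a q-value of 1.01e-05. Its other 5 peaks had folds from 2.21 to 3.71 on 3 to 10 fragments, and 4 of them had a q-value above 0.05. MED29 had a 3' UTR peak of 3.10 (2.27 to 4.16). MED30 had an intron peak of 3.30 (2.08 to 5.01), and MED28 a 3' UTR peak of 3.47 (1.82 to 6.28) with a q-value of 0.0604.

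The middle module held 8 of the 18 Mediator peaks with a q-value under 1e-5, and the kinase module 6. Of the 9 middle module genes 7 held a peak, and all 11 of these peaks had a q-value under 0.05. MED26, the subunit that recruits elongation factors, had its 2 peaks at opposite ends of a 53.3 kb gene. The one at the start, 8.20 (5.43 to 12.0) at chr19:16627684-16628091, had its summit 0.319 kb into the gene. The other, 7.47 (5.96 to 9.27) at chr19:16575670-16577458, covered 1789 bp of 3' UTR and had more fragments, 80 against 24. An uncharacterised gene, LOC105372295, also lies under it. MED26 was the only member with a peak of q under 0.05 in the first 10% of its span besides NUP160.

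MED1, the subunit bound by nuclear receptors, had 2 neighbouring peaks, in its last exon and its 3' UTR. The 3' UTR peak at chr17:39407455-39408293 reached 5.84 (4.93 to 6.86) on 144 fragments over an input level of 15. The peak in exon 17 of 17, at chr17:39408457-39410586, reached 5.36 (4.28 to 6.63), and at 2130 bp was the widest of all member peaks. MED7 had a 3' UTR peak of 5.94 (4.50 to 7.70) at chr5:157138575-157139329. MED9 had 3 peaks, 2 in the 3' UTR with folds of 4.96 (3.88 to 6.26) and 3.70 (2.43 to 5.44), and one of 4.90 (3.36 to 6.93) in its only intron. MED4 reached 5.11 (2.75 to 9.02) in exon 3 of 7 on 9 fragments. MED19 had the lowest fold with a q-value under 1e-5, a 3' UTR peak of 2.93 (2.32 to 3.65) over an input level of 16. MED21 had a peak of 3.65 (2.36 to 5.45) that the deposited table labelled intergenic, although its summit lay 5.14 kb inside the end of the RefSeq span. MED10 and MED31, both under 10 kb long, held none.

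In the tail, the part that activators contact, MED25 was strongest, with a 3' UTR peak of 6.26 (4.78 to 8.06) at chr19:49838648-49839542. The antisense gene PTOV1-AS1 overlaps this peak and a second, weaker one of 2.01 (1.13 to 3.41) beside it, so their source is uncertain. MED23 had an intron peak of 4.99 (2.96 to 8.03) and MED15 had 3 intron peaks, the strongest 4.80 (2.97 to 7.44). MED16 and MED24 had 3' UTR peaks of 3.62 (2.33 to 5.40) and 3.25 (2.01 to 5.04), with summits 0.124 and 0.255 kb from the gene end. The scaffold gene MED14 held no peak in 87.9 kb, the longest Mediator gene without one.

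The kinase module, which blocks the contact of Mediator with the polymerase, held the member with most peaks. MED13 and its paralog MED13L, which occupy the same place in alternative complexes, had 5 and 10 peaks. Their exon peaks had the same rank when counted from the last exon. MED13 had a fold of 5.48 (4.60 to 6.47) in exon 9 of 30 and 4.30 (3.57 to 5.13) in exon 16 of 30. MED13L had a fold of 4.27 (3.40 to 5.30) in exon 10 of 31 and 4.28 (3.44 to 5.26) in exon 17 of 31. Counted from the last exon, both genes thus had one strong peak 21 exons before it and another 14 exons before it. These 4 peaks rested on 135, 119, 80 and 86 fragments, were 740 to 877 bp wide, and all had a q-value under 1e-5. The exons were not aligned, and whether reads were shared between the paralogs was not tested.

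The 3' UTR peaks of this pair differed more. MED13 reached 5.52 (4.23 to 7.10) at chr17:61946035-61946527, and MED13L 2.73 (2.09 to 3.51) at chr12:115960773-115961302, intervals that do not overlap. They leave out the error of the input levels, 5.92 and 13. MED13L held 7 further peaks in introns, with folds from 2.31 to 4.02 on 3 to 21 fragments, of which 1 had a q-value under 0.05. MED13 held 2 intron peaks, of 3.94 (2.59 to 5.79) and 2.37 (1.62 to 3.37). MED12, which activates the kinase, had 2 exon peaks near its end, 4.58 (3.10 to 6.55) in exon 43 of 45 and 2.40 (1.78 to 3.16) in exon 37 of 45. Its paralog MED12L, the longest member at 351 kb, had 1 peak of 2.35 (1.12 to 5.32) in exon 42 of 43 on 3 fragments, with a q-value of 1.

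**Figure D3:**
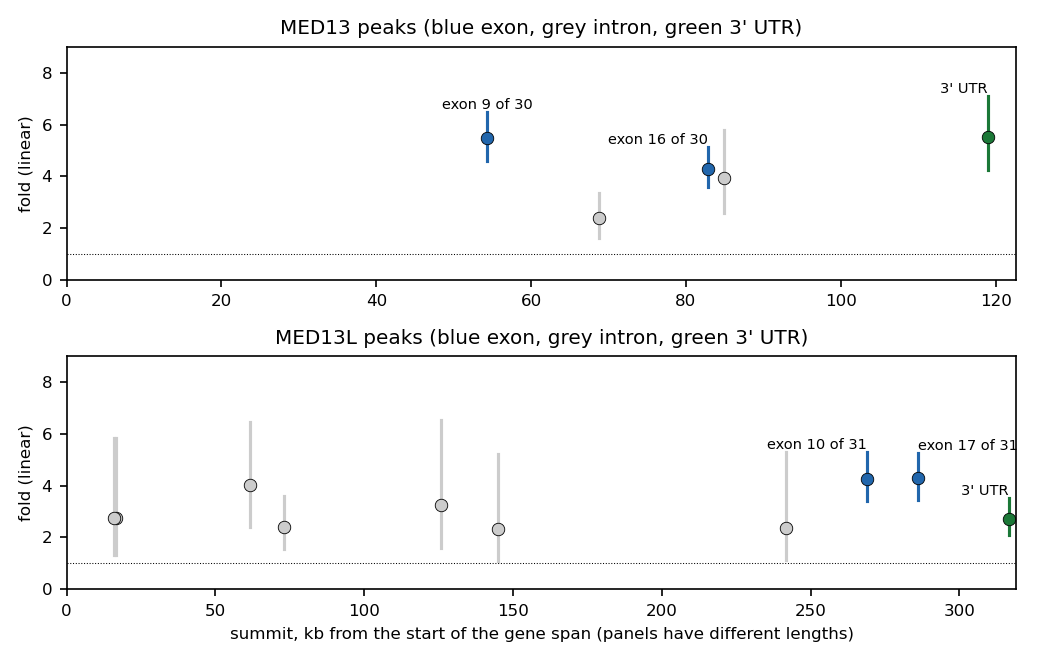
Fold of RIP over input (linear vertical axis) of every peak of MED13 (top) and MED13L (bottom) against the distance of its summit from the gene start in kb. Bars are exact 95% Poisson intervals, and the dotted line marks a fold of 1. Exon 9 of 30 and exon 16 of 30 of MED13 are as many exons before the last as exon 10 of 31 and exon 17 of 31 of MED13L, while the 3' UTR peak is higher in MED13.

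Among nucleoporins of the Y complex, the outer scaffold of the pore, 5 of 7 genes held a peak, 2 of them with a q-value under 0.05. NUP98, whose precursor protein is cut into the FG nucleoporin NUP98 and the scaffold protein NUP96, had the highest fold of the family, 6.67 (4.83 to 8.99) on 40 fragments at chr11:3712232-3712571. The label was 3' UTR although the summit lay 37.4 kb before the end of the gene, so it refers to a transcript that ends earlier than the gene span. NUP160 had 5 peaks. A 3' UTR peak of 5.22 (3.63 to 7.31) at chr11:47778799-47779133 was the strongest, a second in the 3' UTR had a fold of 4.34 (2.22 to 8.10) on 7 fragments, and one in intron 2 of 35 had 4.67 (2.72 to 7.63). The other 2 had q-values above 0.05 and folds of 2.42 and 3.10. NUP107, NUP37 and NUP133 had only intron peaks, with folds from 1.68 to 2.51 and q-values above 0.05. KRT8P39 also lies under the NUP107 peak, so the source of that peak is uncertain. NUP43 and NUP85 held none.

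The inner ring, which anchors the channel, was sparsest. NUP35 had 2 peaks in intron 5 of 9, with folds of 6.05 (3.58 to 9.73) on 14 fragments and 5.89 (3.97 to 8.48) on 26 fragments, both with a q-value under 0.05. NUP93 had 1 intron peak of 2.26 (1.08 to 5.11) on 3 fragments. The large scaffold genes NUP155, NUP188 and NUP205, with spans from 59.4 to 90.8 kb, held no peak, and no inner ring gene had one in an exon or UTR.

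Exon peaks were held by NUP214, NUP153, NUP50 and NUP62 among the FG nucleoporins, and NUP98, NUP42, NUP54 and NUP58 held none in an exon. Outside that group NUP160 (2.42, exon 34 of 36) and NUP210L (2.35, exon 37 of 40) also held an exon peak, both with q-values above 0.05. NUP214, on the cytoplasmic face, had a peak of 5.37 (4.48 to 6.39) on 124 fragments in exon 29 of 36, at chr9:131197384-131198714, which was 1331 bp wide. It also had a 3' UTR peak of 5.35 (3.67 to 7.57) and 3 peaks in intron 30 of 35, of which one, 4.86 (2.92 to 7.73), had a q-value under 0.05. NUP153, of the nuclear basket, had a fold of 5.17 (4.06 to 6.50) in exon 17 of 23 and of 5.22 (3.63 to 7.31) in the 3' UTR. The remaining peak of NUP153, in exon 19 of 23, had a fold of 1.59 (1.19 to 2.09) on 48 fragments over an input level of 19.0. Its basket partner NUP50 reached 5.41 (4.45 to 6.51) on 108 fragments in exon 5 of 8, at chr22:45178311-45179059, and 5.10 (4.06 to 6.35) in a 3' UTR peak 1189 bp wide. The other peak lay in exon 4 of 8, with a fold of 2.41 (1.56 to 3.60) and a q-value of 0.222. The uncharacterised gene LOC105373064 overlaps all 3 NUP50 peaks, so their source is uncertain.

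NUP62, the central channel protein, had the highest input levels of any member, 22.8 and 29.0. Its folds were 4.30 (3.66 to 5.02) in the 3' UTR at chr19:49908072-49908632 and 3.41 (2.91 to 3.98) in exon 2 of 2 at chr19:49908828-49909770, each on 158 fragments. IL4I1 overlaps both peaks, so their source is uncertain. The other channel genes showed little: NUP54 had an intron peak of 3.74 (1.86 to 7.24) on 6 fragments, and NUP58 and the NUP62 paralog NUP62CL held none. NUP42, a cytoplasmic FG protein, had a 3' UTR peak of 6.10 (4.74 to 7.74) at chr7:23200465-23200941, and NUP88, which anchors NUP214, held no peak.

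NUP210, which spans the nuclear membrane, had its strongest peak in an intron. This peak, 6.41 (4.28 to 9.29) on 25 fragments at chr3:13347700-13348771 in intron 20 of 39, was 1072 bp wide. Its 3' UTR peak had a fold of only 1.97 (1.52 to 2.53), on 60 fragments over an input level of 19.0. The other 3 intron peaks had folds of 4.18 (2.90 to 5.85), 3.73 (2.33 to 5.72) and 1.88 (1.14 to 2.94), of which the last had a q-value above 0.05. The paralog NUP210L had a peak of 2.86 (1.36 to 6.08) and one of 2.35 (1.12 to 5.32), on 4 and 3 fragments, neither with a q-value under 0.05. Identical values recur among members, as for the strongest 3' UTR peaks of NUP153 and NUP160 (5.22) and the strongest exon peaks of MED6 and MED12 (4.58). They arise where the same whole number of fragments meets the same input level. The fold of 2.35 in MED12L and NUP210L came from 3 fragments over an input level of 0.246, the lowest among all peaks.

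By region, 3' UTRs and exons together held 27 of 50 Mediator peaks (54%, Wilson 95% interval 40.4 to 67.0) and 17 of 35 nucleoporin peaks (48.6%, 33.0 to 64.4), against 38.3% of peaks in other genes. Peaks of the same gene are not independent (MED13L alone held 10), so the Wilson intervals here are descriptions and may be too narrow. In Mediator genes 17 of 50 peaks (34%) were labelled 3' UTR and 10 (20%) exon. In nucleoporin genes the counts were 9 of 35 (25.7%) and 8 (22.9%), and in the other genes the shares were 19.2% and 17.7%. Introns held 19 Mediator peaks (38%, Wilson 95% interval 25.9 to 51.8) and 18 nucleoporin peaks (51.4%, 35.6 to 67.0), against 43.4% in other genes. Intron peaks had a median of 5 fragments in Mediator genes and 13 in nucleoporin genes, against 6 in other genes. Few genes weigh heavily in these medians. MED13L held 7 and MED27 4 of the Mediator intron peaks, and NUP210 4 and NUP214 3 of the nucleoporin ones. Intron peaks and no others were held by 3 of 24 Mediator genes (MED15, MED23 and MED30) and by 6 of 15 nucleoporin genes, against 12.3% of other genes with a peak. Promoter labels covered 3 Mediator peaks and no nucleoporin peak, against 16.1% of peaks elsewhere. No member had a 5' UTR peak, a label that covered only 1.48% of peaks elsewhere.

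**Figure D4:**
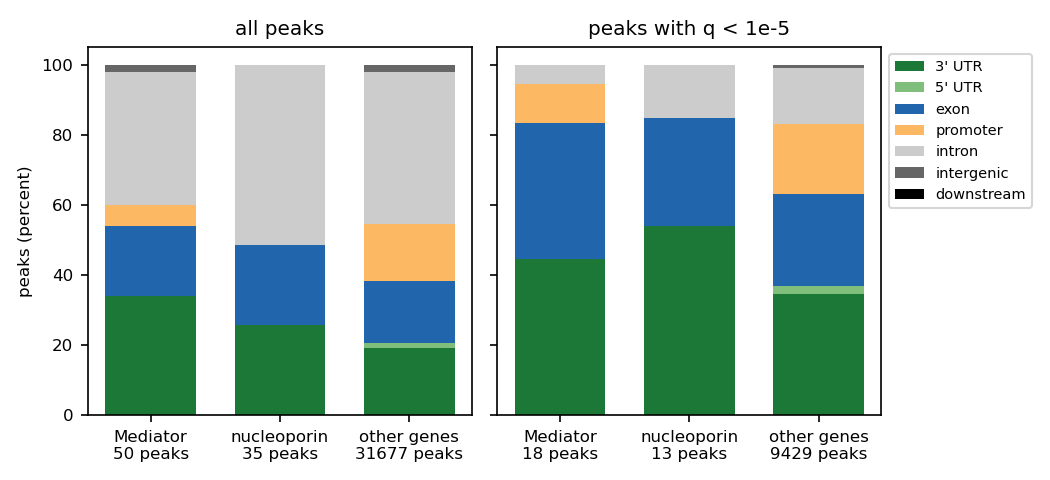
Percent of peaks (vertical axis) by deposited region label in Mediator genes, nucleoporin genes and the other protein-coding genes, for all peaks (left) and peaks with a q-value under 1e-5 (right). At the stricter threshold the 3' UTR and exon labels together hold 15 of 18 Mediator peaks and 11 of 13 nucleoporin peaks.

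Peaks with a q-value under 1e-5 lay mainly in 3' UTRs and exons in both families. Of these, 8 of 18 Mediator peaks (44.4%) and 7 of 13 nucleoporin peaks (53.8%) lay in 3' UTRs, against 34.4% in other genes. Exons held a further 7 (38.9%) and 4 (30.8%), against 26.3%. The median fold at this threshold was not always higher in 3' UTRs. For nucleoporin genes it was 6.15 in introns (2 peaks) and 5.22 in 3' UTRs. For Mediator genes it was 4.90 (1 intron peak) and 5.68, and for other genes 6.59 and 5.63. Among 3' UTR peaks, 15 of 17 in Mediator genes and all 9 in nucleoporin genes had a q-value under 0.05, against 78.6% in other genes. In introns 7 of 19 Mediator peaks and 7 of 18 nucleoporin peaks did, against 32.9%.

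The median summit lay 71.6% of the way from start to end in Mediator genes and 72.6% in nucleoporin genes, against 61.0% in other genes. Among peaks with a q-value under 1e-5 the medians were 88.0% and 89.7%, against 75.5%. The last 10% of the span held 15 of 50 Mediator peaks (30%) and 10 of 35 nucleoporin peaks (28.6%), against 21.7% elsewhere. The first 10% held 5 Mediator peaks (10%) and 3 nucleoporin peaks (8.57%), against 10.2% elsewhere. Promoter windows from 250 bases before to 50 after a start were available for 22 genes of each family. No peak touched any of them, against 3.91% of 15799 other genes with such a window.

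**Figure D5:**
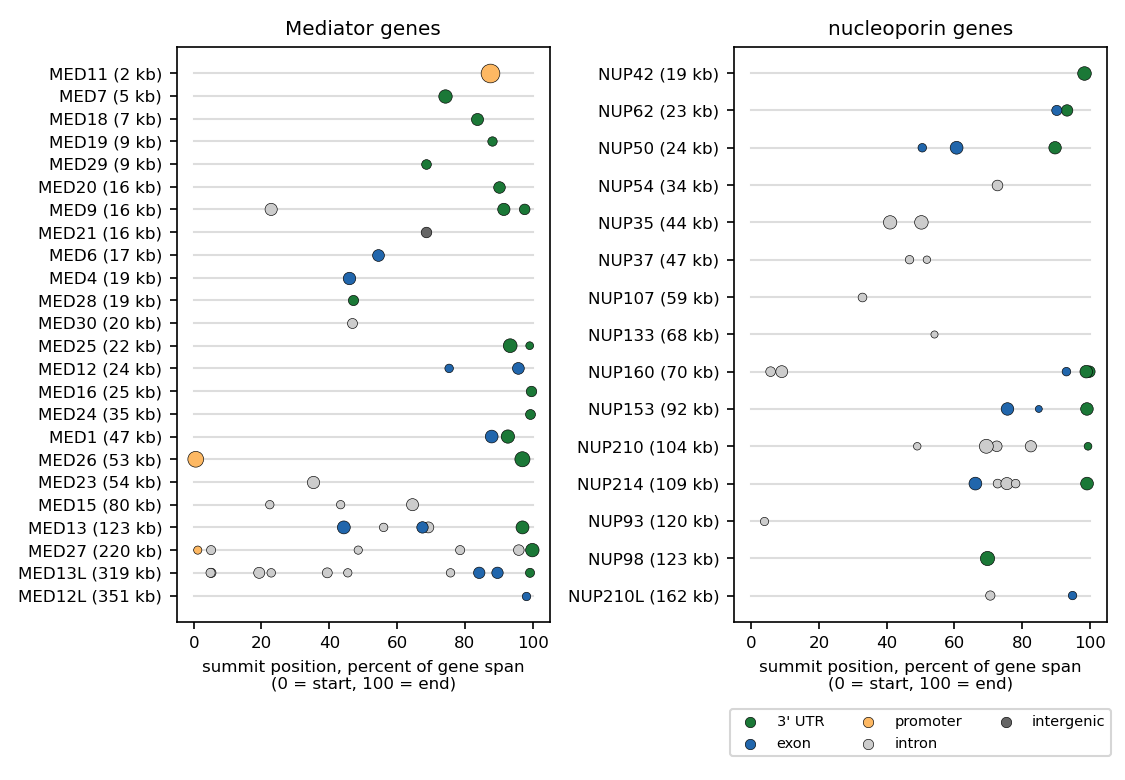
Position of every peak summit along its gene, in percent of the gene span from start to end (horizontal axis), for Mediator genes (left) and nucleoporin genes (right), sorted by span. Circle area follows the fold and colour the deposited region label. Most 3' UTR peaks lie beyond 80% of the span; those of MED7 (74.0%), NUP98 (69.5%), MED29 (68.6%) and MED28 (47.1%) lie earlier.

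The gene named in the deposited table was often a neighbour. Of the 3' UTR peaks, 5 of 17 in Mediator genes and 1 of 9 in nucleoporin genes were assigned to the gene that held them, against 42.7% in other genes. Read from those names alone, 16 Mediator genes (53.3%) and 11 nucleoporin genes (47.8%) would have held a peak outside intergenic sequence, against 46.3% of all protein-coding genes. By this reading no peak was left for 8 of the 24 Mediator genes (33.3%) and 4 of the 15 nucleoporin genes (26.7%) with a summit. In the other genes with a summit this share was 21.6%. MED1, MED12, NUP98, NUP153 and NUP62 were among the members left without a peak. The table did name MED21 for its peak, which dropped out for its intergenic label. The MED1 peaks were assigned to FBXL20, those of NUP153 to FAM8A1 and that of NUP98 to CHRNA10. The 3' UTR peak of MED26 went to SLC35E1.

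Partners of the complexes without a MED or NUP symbol showed a similar mixture. In the kinase module, the kinase gene CDK19 held 6 peaks, its paralog CDK8 none, and the cyclin gene CCNC 1 intron peak of 3.52 (1.85 to 6.39). The strongest CDK19 peak, 10.7 (7.62 to 14.8), had its summit 0.866 kb after the start, where AMD1 also lies. TPR, the basket protein beside NUP153 and NUP50, reached 9.12 (7.43 to 11.1) on 98 fragments in exon 40 of 51, above the highest fold of any nucleoporin gene. RANBP2, the main cytoplasmic filament protein, had 5 peaks in its exon 20 of 29, with folds from 2.73 to 7.79 and the strongest on 122 fragments. Its RefSeq span also covers other genes, and only peaks whose label names RANBP2 are given here. Near-identical RGPD gene copies exist, so its peaks are uncertain. AHCTF1, which seeds pore assembly, had an exon peak of 3.99 (3.34 to 4.73), whereas the Y complex partners SEC13 and SEH1L held none.

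The membrane nucleoporin genes POM121 and POM121C are near-identical copies, so their peaks are uncertain. Both had a 3' UTR peak, of 5.55 (4.46 to 6.84) and 5.46 (4.02 to 7.27), and an exon peak 2 exons before the last, of 3.60 (3.0 to 4.29) and 4.29 (3.54 to 5.14). NDC1, also a membrane nucleoporin, reached 6.67 (4.01 to 10.6) in exon 17 of 18. GLE1 held no peak, AAAS a 3' UTR peak of 2.56 (1.62 to 3.89), and RAE1 2 peaks on at most 4 fragments.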

How the data were processed

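1 m6A RIP library and 1 input library of HCCLM3 cells were compared, extracted and prepared with the kits named in the labels' protocols (Magna RIP; SMARTer stranded pico input). Per the submitters' processing notes, alignment used HISAT2, peak calling used MACS2 and the build was hg38; no versions or settings are stated. The authors deposited annotated peaks. The deposited fold is a linear ratio, RIP over input. Damaged headers hid 2 deposited columns, read here from their values as −log10 p-value and −log10 q-value. With the first read so, the Poisson-tail recovery described below met every peak. Of the deposited scores, 99.99% equal 10 times that column rounded down. The reading of the second column had no such check. All are the authors' own peak values, used only within their list. Peak numbers reach 39824, of which 39801 peaks were used.

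Whole RIP fragments and the input level were recovered from fold (pseudocount of 1) and p-value (Poisson tail). The input level is the expected level in this model, not a count of input fragments, and its lowest value was 0.246. With a scaling factor of 0.642 every one of the 39801 peaks was met within 0.001 on the −log10 p scale, and each of the 85 member peaks had exactly 1 solution. On 2000 peaks simulated from the recovered values under the same model, the fragments were recovered for 99.95%. The simulation checks the inversion only, and cannot show that the model holds. Total depth is unknown. Intervals cover counting error of the RIP fragments only. The input level was held fixed, and fragments without molecular identifiers may be copies of a shared molecule.

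Gene spans came from RefSeq (GRCh38.p14). Strand came from RefSeq promoter windows for 44 members and from the deposited nearest transcript for 5; the other 4 hold no peak. By rule, every member is accounted for, and the 8 of highest fold per family and those with 4 or more peaks are described in full. A hepatocyte marker is not reported here. Members and lists were chosen with earlier results of these data known. With 1 library per group there was no test. Alternatives were peak thresholds, assignment rules, gene length, the pseudocount, and leaving out paralogs or the gene with most peaks. Python 3.11.15, pandas 2.3.3 and scipy 1.17.1 were used.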

Additional observations from a re-analysis of the deposited data

How the results depend on the processing

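Under the alternatives 82 values stayed within their interval (for medians and densities, within 1.5 times), 19 moved further and 2 ratios changed direction. At a q-value under 0.05 the share of nucleoporin genes with a peak was 39.1%, and exons and UTRs held 70.6% of Mediator peaks and 65% of nucleoporin peaks. At a q-value under 1e-5 the shares of genes were 40% for Mediator and 39.1% for nucleoporins, and exons and UTRs held 83.3% and 84.6% of their peaks. At a fold of at least 4 the shares of genes were 53.3% and 39.1%, and of peaks 73.9% and 64.7%. With at least 10 fragments the nucleoporin share was 43.5%. Without intron peaks it was 39.1%, and exons and UTRs held 87.1% of Mediator and 100% of nucleoporin peaks. By nearest start 53.3% of Mediator genes held a peak, exons and UTRs held 39.1% of Mediator and 17.6% of nucleoporin peaks, and the median highest fold of nucleoporin genes was 2.51. The ratio of that median, Mediator over nucleoporin, was then 1.92, against 0.898 in the report, and 1.01 without MED13L and NUP210. The cause was not tested. The difference in share of genes, 14.8 percentage points, ranged from 0.870 at a q-value under 1e-5 to 34.2 at one under 0.05. The difference in share of peaks in exons and UTRs, 5.43 points, was -1.28 at a q-value under 1e-5 and -12.9 without intron peaks. Both changed sign but lay within the interval of the main value, so they count among the 82. The order of the median folds and the sign of this difference are therefore not stable. The size of the differences in shares depends on the threshold. No paired analysis was possible because each group has 1 library. Peaks on few fragments have wide intervals, and for a gene without a peak, low RNA and low methylation cannot be told apart.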
